A study of Mus musculus with 55 samples.

Results

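The genes described here are 6 matrix metalloproteinases (Mmp2, Mmp3, Mmp9, Mmp12, Mmp14 and Mmp19), 3 tissue inhibitors of metalloproteinases (Timp1, Timp2 and Timp3) and Reck, a membrane-anchored inhibitor. They were chosen by name, as the rows of the deposited count table whose Ensembl identifiers carry these symbols, so 10 of 43432 genes. All 10 passed the low-count filter that left 21113 genes for testing. The RNA came from gonadal white fat of C57BL/6 mice at an age of 6 months, as 55 mRNA libraries. Littermate controls were wild type (WT), and all other animals carried 1 knock-in copy of Htt, the Huntington's disease gene, next to 1 normal copy. The allele names (Q20, Q80, Q92, Q111, Q140 and Q175) give the CAG repeat length, and Q20 is in the unexpanded range. Each genotype held 4 female and 4 male libraries, except that WT had 3 female libraries. WT shared cages with Q20 while every remaining line was kept with its own kind. Housing and genotype therefore cannot be told apart in the comparisons of genotypes, except in Q20 against WT. Total counts lay between 35094442 and 51363637 per library with a median of 42009365. The labels number the libraries of a group as replicates and do not say that each came from a separate animal, so p-values measure the spread between these libraries.

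Matrix metalloproteinases are zinc enzymes that are made as inactive precursors and cut collagens, fibronectin, elastin and other proteins outside the cell. The Timp proteins bind their active sites. Timp2 has a second role, since it bridges Mmp14 at the cell surface to the precursor of Mmp2 and so helps to activate it. Reck is tethered to the membrane by a lipid anchor, restrains Mmp2, Mmp9 and Mmp14, and also acts with the receptor Adgra2 in Wnt7 signalling. In fat, the matrix is remodelled as adipocytes enlarge, and mice without Mmp14 have very small adipocytes.

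Upstream sequence of 4 genes is shown because of the comparisons that follow: Reck and Timp2 were both called higher in Q175 than in WT, and Mmp3 and Mmp12, which lie close together on chromosome 9, differed between the sexes in opposite directions. RefSeq promoter windows (build GRCm38.p6) were matched for 7 of the 10 genes, the others being Mmp2, Mmp9 and Mmp19. Each sequence is the 250 bases before the RefSeq start, written 5′ to 3′ in the direction of the gene, and Mmp12 is shown at the second of its 2 starts. Capitals mark matches to TGANTCA (the AP-1 motif), TATAAA (the TATA box) or GGGCGG (the GC box) on either strand. No match overlaps another.
Reck, chr4:43875280-43875529, plus strand: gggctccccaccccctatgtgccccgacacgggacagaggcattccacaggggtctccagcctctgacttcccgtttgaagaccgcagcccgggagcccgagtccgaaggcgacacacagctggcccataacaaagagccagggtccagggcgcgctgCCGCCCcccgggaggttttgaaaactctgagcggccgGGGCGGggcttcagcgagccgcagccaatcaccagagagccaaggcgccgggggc
Timp2, chr11:118355412-118355661, minus strand: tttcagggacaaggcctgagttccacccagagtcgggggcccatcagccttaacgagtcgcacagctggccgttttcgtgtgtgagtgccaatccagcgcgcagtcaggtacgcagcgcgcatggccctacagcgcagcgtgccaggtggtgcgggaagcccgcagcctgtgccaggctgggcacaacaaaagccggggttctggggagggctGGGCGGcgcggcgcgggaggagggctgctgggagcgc
Mmp3, chr9:7445572-7445821, plus strand: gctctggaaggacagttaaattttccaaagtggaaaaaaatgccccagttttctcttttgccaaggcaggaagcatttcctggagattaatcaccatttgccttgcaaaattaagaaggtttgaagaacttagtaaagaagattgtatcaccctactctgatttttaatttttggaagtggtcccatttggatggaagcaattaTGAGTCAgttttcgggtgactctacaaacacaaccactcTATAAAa
Mmp12, chr9:7347124-7347373, plus strand: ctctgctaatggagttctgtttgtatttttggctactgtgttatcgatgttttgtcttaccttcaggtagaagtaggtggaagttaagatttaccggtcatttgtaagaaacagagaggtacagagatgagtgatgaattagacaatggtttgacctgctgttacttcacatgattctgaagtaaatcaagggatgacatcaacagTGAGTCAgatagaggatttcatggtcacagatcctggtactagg

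The window of Mmp3 and that of the second Mmp12 start held the same 7 letters at a like place, while the window of the other Mmp12 start held no match to any of the motifs. In the windows shown, the AP-1 match ran from base 46 to base 40 before the start in Mmp3 and from base 44 to base 38 in Mmp12. TGANTCA was present in 6.75% of the 32851 RefSeq windows of this length, TATAAA in 12.4% and GGGCGG in 32.7%. The Reck window had 68.4% and the Timp2 window 68% of G and C, against 37.6% in Mmp3, 39.6% in Mmp12 and a median of 52.4% over all windows. Reck held 2 GC box matches and Timp2 held 1. This is not particular to these genes. The windows of Mmp14 (2 matches, 55.2% of G and C), Timp1 (1 match, 54.4%) and Timp3 (1 match, 65.6%) held GC boxes too. Those genes were not called in Q175 against WT. A match describes letters and does not show a bound factor.

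Levels between genes were compared on the deposited FPKM, which are scaled for gene length. Over the 55 libraries the inhibitors Timp2 and Timp3 led, at 127 ± 40.9 and 109 ± 29.1 FPKM (SD, n = 55). The gelatinase Mmp2 (28.0 ± 11.4 FPKM), the membrane-bound Mmp14 (26.2 ± 13.3 FPKM) and Mmp19 (21.4 ± 4.73 FPKM) came next. The lowest were Mmp12, the macrophage elastase (7.62 ± 15.3 FPKM), Mmp9, the other gelatinase (6.41 ± 2.32 FPKM), Timp1 (3.68 ± 2.82 FPKM), Mmp3, a stromelysin (3.63 ± 3.77 FPKM), and Reck (3.44 ± 1.15 FPKM). For Mmp12 and Mmp3 the SD was as large as the mean or larger. All levels below are CPM (counts scaled to a fixed library total) on scaled library sizes, and differences are log2 differences between group means with their standard error (SE).

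Some libraries stood apart. In Q140 female replicate 1 and Q140 male replicate 4 the sex genes went against the labels, with the Y-linked Ddx3y at 76.6 and 0.047 CPM. In 14 male libraries the summed level of epididymis and testis markers, organs that lie against this fat, reached 100 CPM or more and up to 30760 CPM, with all 4 Q175 males among them and no WT library. All 12 adipocyte markers were found, with sums between 5478 and 55500 CPM. The lowest sums were 5478 CPM in Q92 male replicate 1 and 9477 CPM in Q140 male replicate 1. The library numbers of all 15 WT and Q175 libraries lay in a range of their own and those of 39 other libraries in a lower one, so in Q175 against Q20 and in Q20 against WT the genotype and the range of library numbers cannot be told apart. In bulk tissue, fewer cells of a type and less RNA per cell cannot be told apart.

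Reck was the 1 gene of the set called higher in Q175 against both controls. WT females had 9.61, 14.9 and 8.98 CPM, and WT males 15.8, 8.86, 8.70 and 9.68 CPM. Q175 females had 25.5, 23.9, 23.1 and 24.7 CPM, and Q175 males 15.1, 19.8, 18.7 and 18.3 CPM. So 7 of the 8 Q175 libraries lay above all 7 WT libraries, and the remaining Q175 male lay below the highest WT male. Q20, with 11.5 to 15.1 CPM over its 8 libraries, lay wholly below Q175. By edgeR's quasi-likelihood test Reck was higher in Q175 than in WT by 0.93 ± 0.15, a fold of 1.91 (adjusted p = 0.000255), and higher than in Q20 by 0.59 ± 0.14, a fold of 1.51 (adjusted p = 0.0024). Q20 against WT gave 0.34 ± 0.14 (adjusted p = 0.365). Both Q175 comparisons rest on the same 8 Q175 libraries, and each shares its control libraries with Q20 against WT, so they are not separate pieces of evidence. Neither Q175 call was lost when any single library was left out, but both were lost in the male libraries alone, at 0.79 to WT (adjusted p = 0.287) and 0.48 to Q20 (adjusted p = 0.244).

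**Figure D1:**
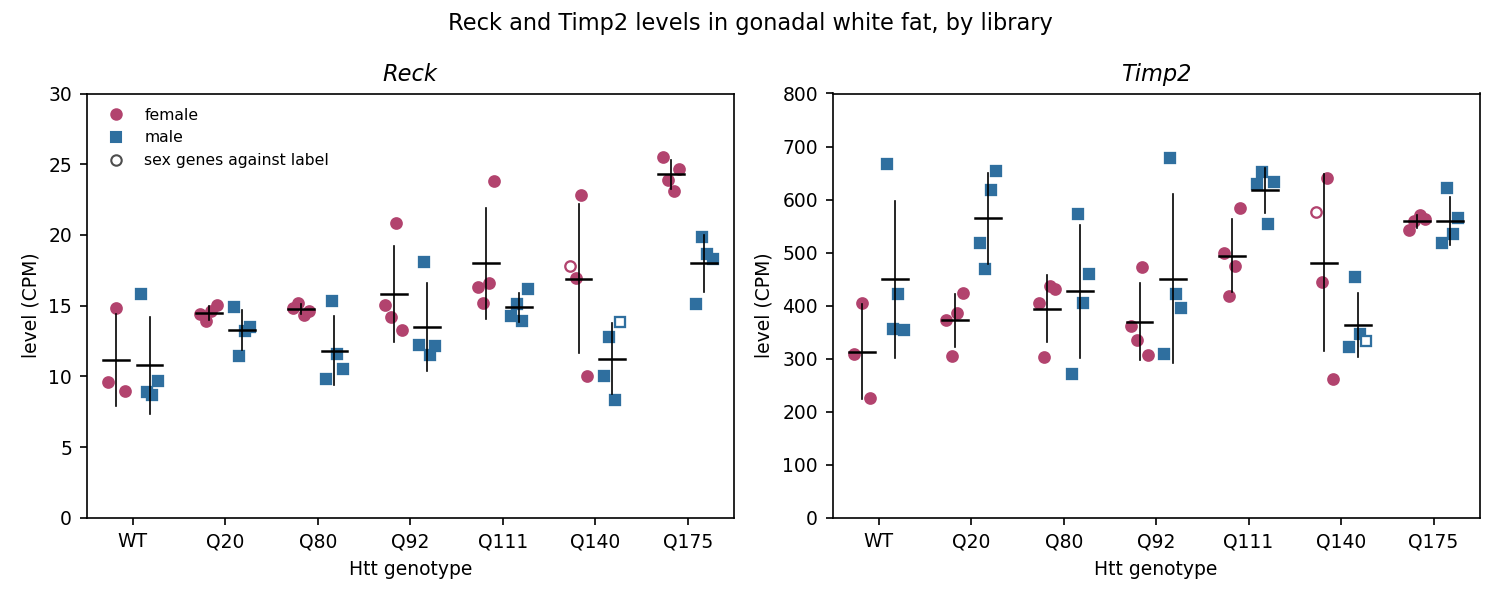
Level of Reck and Timp2 in CPM (vertical axes from 0) in each library by genotype, with females as circles, males as squares, open symbols for the 2 Q140 libraries whose sex genes go against their labels, and bars for the group mean ± SD. Reck lies at 23.1 to 25.5 CPM in Q175 females against 8.98 to 14.9 CPM in WT females, and Timp2 in Q175 lies in a narrow range from 519 to 622 CPM.

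The mean level of Reck rose in the order WT (10.9 ± 3.05 CPM, n = 7), Q80 (13.3 ± 2.25), Q20 (13.9 ± 1.18), Q140 (14.1 ± 4.88), Q92 (14.7 ± 3.26), Q111 (16.4 ± 3.15) and Q175 (21.1 ± 3.69, n = 8 in each knock-in line). Each neighbour in this order differed by less than the larger SD of the pair, except Q111 and Q175. Against Q20 the lines between gave -0.07 (Q80), 0.08 (Q92), 0.24 (Q111) and -0.01 (Q140), with adjusted p from 0.737 to 1. The slope over CAG length in the 6 knock-in lines was 0.32 ± 0.08 per 100 repeats (adjusted p = 0.0125), and Reck was the 1 gene of the 10 called there, where edgeR called 8.32% of all genes and 2.65% with a rising slope. Over Q20 to Q140 alone the slope of Reck was 0.07 ± 0.11 (adjusted p = 0.966). The Q175 libraries lay in another range of library numbers than the other knock-in lines. The part of Q175 in the slope therefore cannot be told apart from that range. The call of the slope was also lost with the lane code as a factor (0.24, adjusted p = 0.0933), with the length trend removed (0.23, adjusted p = 0.096) and in the male libraries alone (0.18, adjusted p = 0.709).

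Timp2 was also higher in Q175 than in WT. WT females had 310, 405 and 225 CPM and WT males 667, 355, 422 and 354 CPM. The 8 Q175 libraries lay between 519 and 622 CPM, with a coefficient of variation of 5.51% against 35.3% in WT. All 4 Q175 females lay above all 3 WT females, while WT male replicate 1 lay above every Q175 library. The difference was 0.58 ± 0.17 (adjusted p = 0.0199). It was not called without WT female replicate 3 (0.48, adjusted p = 0.103), without WT male replicate 2 (0.53, adjusted p = 0.0509), with the lane code as a factor (0.44, adjusted p = 0.179), with the length trend removed (0.48, adjusted p = 0.0658) or in the male libraries alone (0.36, adjusted p = 0.533). Against Q20 it was 0.29 ± 0.16 (adjusted p = 0.243). The 4 Q20 females, at 305 to 423 CPM, lay below all Q175 females, and the 4 Q20 males, at 469 to 654 CPM, overlapped the Q175 males.

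Mmp9, a secreted gelatinase that Reck restrains, was called in this comparison as well. The WT libraries held 9.07 to 26.9 CPM with a median of 14.4, and the Q175 libraries 20.2 to 28.4 CPM with a median of 24.8. The difference was 0.71 ± 0.23 (adjusted p = 0.0384). Leaving out any of 10 of the 15 libraries ended that call, with values from 0.60 to 0.74: Q175 female replicates 1, 2 and 3, Q175 male replicates 3 and 4, WT female replicates 1 and 3, and WT male replicates 2, 3 and 4. It was also not called with no low-count filter (0.74, adjusted p = 0.0511), with the lane code as a factor (0.72, adjusted p = 0.133), with the length trend removed (0.64, adjusted p = 0.0768) or in the male libraries alone (0.65, adjusted p = 0.463). Q20 against WT gave nearly the same value for Mmp9, 0.70 ± 0.23, with an adjusted p of 0.174, and Q175 against Q20 gave 0.01 ± 0.22. Without WT male replicate 1, which had the highest WT level at 26.9 CPM, Mmp9 was called in Q20 against WT (0.90, adjusted p = 0.0236).

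So 3 of the 10 genes (Reck, Timp2 and Mmp9) were called higher and 0 lower in Q175 against WT, where edgeR called 10.4% of all genes, 3.34% as higher. Their median difference was 0.46, beside 0.01 over all genes tested. Timp1, a soluble inhibitor with 0.597 to 2.68 CPM in WT and 1.75 to 3.80 CPM in Q175, stood at 0.86 ± 0.43 (adjusted p = 0.206), and the matrix-bound Timp3 at 0.34 ± 0.19 (adjusted p = 0.274). Timp3 was called in 6 alternative settings, among them the 3 surrogate variables (0.54, adjusted p = 0.00783). Mmp2 stood at 0.34 ± 0.23, Mmp3 at 0.67 ± 0.55, Mmp14 at 0.06 ± 0.23, Mmp19 at -0.16 ± 0.23 and Mmp12 at -0.39 ± 0.86, with adjusted p from 0.381 to 0.952. The Mmp12 value ran from -0.58 to 0.30 as single libraries were left out. Mmp2 was called higher with voom (0.38, adjusted p = 0.0327) and with the genotypes fitted alone (0.365, adjusted p = 0.0324). Its level was 122 to 156 CPM in Q175 females and 59.3 to 94.5 CPM in WT females, while the males overlapped. Mmp3 was called higher with voom and Timp1 with the genotypes fitted alone. In Q175 against Q20, 1 of the 10 genes (Reck) was called, beside 14.2% of all genes and 4.54% as higher, with a median of 0.19 over the 10 and 0.01 over all. Mmp19 stood at -0.40 ± 0.22 against Q20 (adjusted p = 0.231). It was called lower with voom (-0.44, adjusted p = 6.91e-05), with the genotypes fitted alone (-0.40, adjusted p = 0.0126) and in females alone (-0.32, adjusted p = 0.0363). Mmp12, Mmp14 and Timp2 were each called higher in at least 1 of those settings. On FPKM with 0.1 added the balance over all genes turned from 1498 lower of 2204 called to 334 lower and 2027 higher in Q175 against WT, and from 958 higher and 2048 lower to 3235 and 577 against Q20. The median of all genes there moved to 0.17 and 0.21, and Reck stood at 1.14 and 0.81, above those shifts. Timp2 stood there at 0.82 to WT and at 0.54 to Q20, where it was then called (adjusted p = 0.0397).

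Marker genes moved with these 3 calls. In Q175 against WT, 5 of 13 macrophage markers were called higher, with sums of 433 to 1298 CPM in WT and 1097 to 1281 CPM in Q175. Of the 12 stromal progenitor markers 6 were called higher, with sums of 934 to 1515 CPM in WT and 1135 to 1730 CPM in Q175. None of either list was at 0 in either genotype. Among them Itgam rose by 1.22 ± 0.26, Mrc1 by 0.91 ± 0.20, Pi16 by 1.32 ± 0.30 and Pdgfra by 0.83 ± 0.20. Of the 12 adipocyte markers 0 were called by edgeR in Q175 against WT and 3 had an unadjusted p under 0.05, with sums of 35820 to 46780 CPM in WT and 23280 to 37880 CPM in Q175. Of 8 mesothelial markers edgeR called 0, 0 had an unadjusted p under 0.05, and the median was -0.14. The summed level of epididymis and testis markers was 0 to 26.1 CPM in WT, where Lcn9 was at 0, and 0.101 to 2849 CPM in Q175, with 2 of the 10 tested called higher. With the libraries high in those markers left out, which removes all 4 Q175 males and sets 4 Q175 females against WT of both sexes, Reck stood at 1.02 (adjusted p = 0.00156), Timp2 at 0.74 (adjusted p = 0.0192) and Mmp9 at 0.75 (adjusted p = 0.0309) in an additive design. The part of macrophages and progenitors in the 3 calls was not tested.

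Other genes of the pathway were taken from fixed lists. Over all genes tested edgeR called 10.4% in Q175 against WT, 3.34% as higher. In Q175 against WT, 0 of the 16 tested genes among 17 further Mmp genes and Timp4 were called by edgeR, 1 had an unadjusted p under 0.05, and the median was 0.40. Among 24 ADAM, ADAMTS and astacin proteinases 4 were called higher and 0 lower (median 0.31). They included Adam10, which cuts Notch and other surface proteins (0.41 ± 0.09, adjusted p = 0.00246), and Adam17, which frees tumour necrosis factor from the membrane (0.34 ± 0.09, adjusted p = 0.00787). Of 13 activators and plasminogen system genes 1 was called, Plat, the tissue plasminogen activator, which was higher by 0.89 ± 0.24 (adjusted p = 0.0116). Of 17 other inhibitors, uptake receptors and cofactors 4 were called higher, among them Adgra2, the receptor that acts with Reck (0.75 ± 0.22, adjusted p = 0.0209), and Tfpi2, a secreted inhibitor (1.03 ± 0.30, adjusted p = 0.0201). Adgra2 had 15.9 ± 3.56 CPM in WT, 16.5 ± 2.997 in Q20 and 27.0 ± 3.93 in Q175, and it was called against Q20 as well (0.71 ± 0.21, adjusted p = 0.0153). Fzd4, the Wnt receptor of that complex, stood at 0.49 ± 0.22 to WT (adjusted p = 0.145) and 0.64 ± 0.21 to Q20 (adjusted p = 0.0318), and was named for that role after its values were seen. Of 20 matrix substrates 5 were called higher and 0 lower (median 0.52). Fn1, fibronectin, had 214 ± 190 CPM in WT and 644 ± 84.3 in Q175 (1.68 ± 0.34, adjusted p = 0.00182), and Fbn1, fibrillin, had 89.2 ± 75.8 and 226.7 ± 28.4 CPM (1.44 ± 0.29, adjusted p = 0.00181).

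Against Q20 the same lists gave, in Q175, 0 of 16 further Mmp genes and Timp4, 5 of 24 ADAM-type proteinases, 0 of 13 activators, 5 higher and 1 lower of 17 inhibitors and cofactors, and 4 of 20 substrates as called by edgeR. Over all 21113 genes tested edgeR called 14.2% in that comparison, 4.54% as higher, with 2048 genes lower. In the lists with 0 calls, 1 further Mmp gene and 2 activators had an unadjusted p under 0.05. The 1 lower gene was Bsg, an inducer of Mmp synthesis also called basigin (-0.44 ± 0.10, adjusted p = 0.00196). Lrp1, the endocytic receptor that clears Mmp9 and Mmp2 complexes, had 469 ± 97.0 CPM in Q20 and 820.5 ± 158.7 in Q175 (0.79 ± 0.18, adjusted p = 0.00141). The basement membrane proteoglycan gene Hspg2 (0.78 ± 0.19) and Eln, elastin (0.86 ± 0.26), were called higher with it. Marker lists held calls in Q175 against Q20 as well. Called higher were 1 of 13 macrophage, 2 of 12 progenitor, 1 of 8 endothelial, 1 of 10 epididymis and testis and 2 of 6 exocrine pancreas markers. Of the adipocyte markers 1 of 12 was called lower. Of 8 mesothelial markers edgeR called 0, but 3 had an unadjusted p under 0.05 and the median was -0.80. The mesothelial sums were 138 to 548 CPM in Q20 and 96.6 to 345 CPM in Q175. A list with 1 call is not read as a change of that list. The macrophage sums were 777 to 1461 CPM in Q20 and 1097 to 1281 CPM in Q175, the progenitor sums 1012 to 1479 and 1135 to 1730 CPM, and the adipocyte sums 21260 to 55500 and 23280 to 37880 CPM. The endothelial sums were 573.5 to 1273 and 900.6 to 1221 CPM, and the epididymis and testis sums 0.0747 to 6737 and 0.101 to 2849 CPM. The pancreas sums were 0 to 0.247 CPM in Q20, where Prss2, Ctrb1 and Cela2a were at 0, and 0.0262 to 139 CPM in Q175. Their part in the Reck call against Q20 was not tested.

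In Q92 the 1 gene called among the 10 was Mmp9, which was lower than in Q20. Q92 females had 11.9, 7.55, 10.9 and 8.52 CPM and Q92 males 6.16, 18.3, 11.3 and 14.2 CPM. Q20 females had 31.9, 22.5, 21.5 and 19.0 CPM and Q20 males 36.0, 18.3, 21.5 and 20.0 CPM. Every Q92 library lay below every Q20 library, by a small margin for Q92 male replicate 2 and Q20 male replicate 2. The difference was -1.11 ± 0.22, a fold of 0.462 (adjusted p = 0.00177), in a comparison in which edgeR called 6.11% of all genes and 0.208% as lower. Leaving out any single library did not end the call, and the female and the male libraries alone gave -1.28 (adjusted p = 0.112) and -0.95 (adjusted p = 0.0978). It was not called in Q92 and Q20 fitted alone (-1.10, adjusted p = 0.124), with the lane code as a factor (-1.13, adjusted p = 0.0528), or without the libraries high in epididymis markers (-1.12, adjusted p = 0.0598), where 0 genes of the whole table were called.

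**Figure D2:**
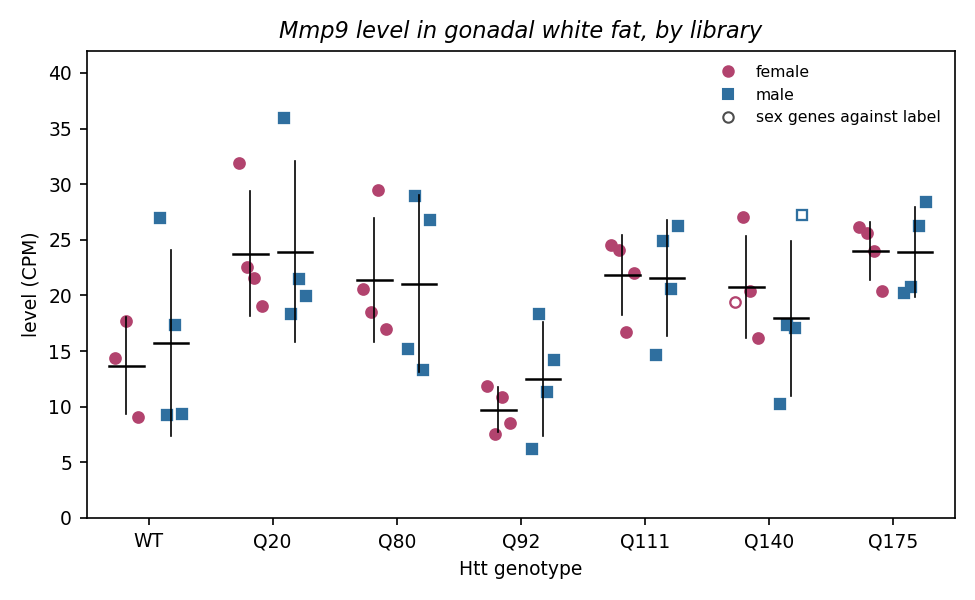
Level of Mmp9 in CPM (vertical axis from 0) in each library by genotype, with females as circles, males as squares, open symbols for the 2 Q140 libraries whose sex genes go against their labels, and bars for the group mean ± SD. The 8 Q92 libraries lie between 6.16 and 18.3 CPM, below the 8 Q20 libraries.

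The order of the mean Mmp9 level was Q92 (11.1 ± 3.88 CPM), WT (14.8 ± 6.53), Q140 (19.4 ± 5.66), Q80 (21.2 ± 6.37), Q111 (21.7 ± 4.16), Q20 (23.8 ± 6.46) and Q175 (24.0 ± 3.16), and each neighbour differed by less than the larger SD of the pair. Of 6 skeletal muscle markers 5 were called higher in Q92, with sums of 16.0 to 6835 CPM in Q92 against 4.48 to 157 CPM in Q20. The high sums lay in Q92 female replicates 1 and 2 (6835 and 2038 CPM) and Q92 male replicate 1 (5450 CPM). All other Q92 libraries held 16.0 to 71.8 CPM, within the Q20 range. Of 13 macrophage markers and of 8 lymphocyte markers edgeR called 0 in Q92 against Q20, and 1 of each list had an unadjusted p under 0.05. Macrophage sums lay at 545 to 1685 CPM in Q92 and 777 to 1461 CPM in Q20. Of 6 ovary and oviduct markers 2 were called higher, with sums of 8.47 to 75.4 CPM in Q92 and 6.76 to 20.8 CPM in Q20, where Fshr was at 0. Of 8 mesothelial markers edgeR called 0, but 4 had an unadjusted p under 0.05 and the median was -0.845. Their sums were 94.5 to 310 CPM in Q92 and 138 to 548 CPM in Q20. The part of muscle RNA and of these other lists in the Mmp9 value was not tested. Timp1 stood at 0.87 ± 0.41 in Q92 (adjusted p = 0.244) and at 0.42 without Q92 female replicate 2, which held 13.1 CPM, Mmp19 at -0.51 ± 0.22 (adjusted p = 0.187) and Mmp12 at 1.76 ± 0.87 (adjusted p = 0.274). Of the pathway lists, Adamts1, a proteinase of proteoglycans, was called lower (-0.66 ± 0.19, adjusted p = 0.029) and Spp1, osteopontin, higher (3.89 ± 1.15, adjusted p = 0.0305).

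The other lines held 0 calls among the 10 genes by edgeR. In Q80 and Q140 against Q20, 1 gene of the 10 in each (Mmp12) had an unadjusted p under 0.05, and in Q111 there were 3 (Mmp12, Mmp14 and Timp1). DESeq2 and voom also called 0 in these 3 lines, and edgeR called 0% of all genes in each. Mmp12 stood at 2.62 ± 0.89 in Q80, 1.801 ± 0.87 in Q111 and 2.33 ± 0.88 in Q140 (adjusted p 0.458, 0.714 and 0.316). Single libraries carried 2 of these values: Mmp12 stood at 0.45 in Q80 without Q80 male replicate 2, and at 0.43 in Q140 without Q140 female replicate 1, whose sex genes went against its label, or 1.29 without Q140 male replicate 1. With voom the Q140 value was -0.35, and in females alone it was -0.215. In Q111, Timp1 stood at 1.07 ± 0.41 and Mmp14 at 0.59 ± 0.22 (adjusted p = 0.704 for each), and Mmp14 at 0.20 without Q111 female replicate 4. Q111 female replicate 4 had the highest Mmp14 level of all 55 libraries, 260 CPM against 66.3 to 70.3 CPM in the other Q111 females. That library also had the highest Mmp2 (195 CPM) and Mmp3 (35.4 CPM) levels. In Q20 against WT, edgeR called 0 of the 10 and DESeq2 0, voom called 3, and 3 (Mmp9, Mmp12 and Reck) had an unadjusted p under 0.05. There edgeR called 0.753% of all genes.

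Sex was the largest divide in the set by number of calls. Of the 10 genes 2 were called higher and 4 lower in males, where edgeR called 46.3% of all genes, 27.9% as higher and 18.3% as lower, so the 6 calls stand near the background. The median was -0.26 over the 10 and 0.07 over all genes. The largest differences were those of Mmp3 and Mmp12, in opposite directions.

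Mmp3, a stromelysin that cuts proteoglycans, fibronectin and other Mmp precursors, was higher in females. Over 27 female libraries the lowest, median and highest levels were 0.515, 10.1 and 35.4 CPM, and over 28 male libraries 0.170, 1.48 and 8.06 CPM. The lowest female and the highest male were the 2 Q140 libraries whose sex genes went against their labels. Without these, females held 5.57 to 35.4 CPM and males 0.170 to 5.70 CPM, and 26 of 27 males lay below all 26 females. The groups did not overlap in 6 of the 7 genotypes, Q140 being the exception. The difference was -2.54 ± 0.30, a fold of 0.172 in males (adjusted p = 7.46e-09), and -2.76 without the 2 Q140 libraries.

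Mmp12, an elastase made mainly by macrophages, was higher in males. Females held 0.200, 0.925 and 22.1 CPM (lowest, median and highest) and males 1.04, 12.1 and 129.8 CPM. Without the 2 Q140 libraries the female range ended at 8.30 CPM, and 17 of 27 males lay above it. The difference was 3.41 ± 0.50, a fold of 10.6 (adjusted p = 6.42e-07), and 4.001 without the 2 Q140 libraries. In WT, Q20, Q111 and Q175 all 4 males lay above the females of the same genotype. Among males, Q20 held 3.82 to 7.40 CPM, below both WT (11.1 to 52.1 CPM) and Q175 (13.9 to 27.1 CPM), while over both sexes Q20 against WT stood at -2.08 ± 0.90 (adjusted p = 0.381). In Q80 males only replicate 2 was high, at 129.8 CPM against 1.32 to 2.22 CPM in the others.

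**Figure D3:**
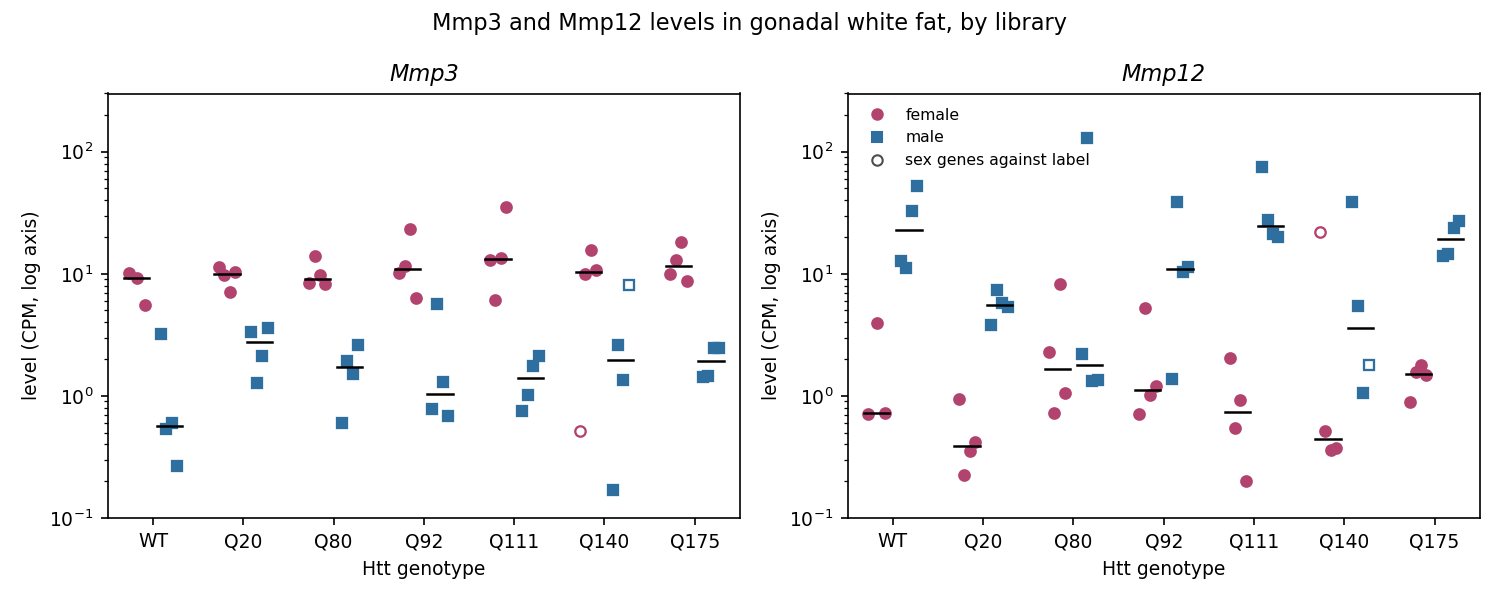
Level of Mmp3 and Mmp12 in CPM (log axes) in each library by genotype, with females as circles, males as squares, open symbols for the 2 Q140 libraries whose sex genes go against their labels, and bars for the group median. Mmp3 lies at a median of 10.1 CPM in females and 1.48 CPM in males, and Mmp12 at 0.925 and 12.1 CPM.

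Of 13 macrophage markers 5 were called higher in males and 0 lower, beside 27.9% and 18.3% of all genes. The list median was 0.22, against 0.07 over all genes. The macrophage sums were 433 to 1192 CPM in females and 545 to 2007 CPM in males, with none of the markers at 0 in either sex. Among those called were Itgax, an integrin chain of macrophages and dendritic cells (1.33 ± 0.21, adjusted p = 2.96e-06), and Gpnmb, a gene of lipid-laden macrophages (1.86 ± 0.28, adjusted p = 9.63e-07). The macrophage sum was 1908 CPM in Q80 male replicate 2. Of 8 mesothelial markers 5 and of 12 stromal progenitor markers 5 were called lower in males and 0 higher, beside 18.3% of all genes called lower. The medians of these lists were -0.75 and -0.19. The mesothelial sums were 94.5 to 661.5 CPM in females and 46.8 to 548 CPM in males, and the progenitor sums 1001 to 1730 and 653 to 1540 CPM, with no marker of either list at 0. All 6 skeletal muscle markers and 4 of 12 adipocyte markers were also called lower in males and 5 of 8 lymphocyte markers higher, beside the 18.3% lower and 27.9% higher of all genes. The muscle sums were 4.48 to 6835 CPM in females (median 28.1) and 3.40 to 5450 CPM in males (median 25.2). The adipocyte sums were 24370 to 51750 and 5478 to 55500 CPM. The lymphocyte sums were 6.63 to 19.6 CPM in females and 5.32 to 146.6 CPM in males. The part of these lists in the differences of Mmp12 and Mmp3 was not tested. With the libraries high in epididymis markers left out in an additive design, Mmp3 stood at -2.42 (adjusted p = 1.07e-05) and Mmp12 at 3.57 (adjusted p = 0.000284).

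The remaining sex differences were smaller than 0.6. Mmp2 held 102.7 ± 32.7 CPM in females and 67.4 ± 21.5 CPM in males (-0.58 ± 0.12, adjusted p = 0.000122). Mmp19, a soluble proteinase of basement membrane proteins, held 82.0 ± 11.5 and 66.1 ± 22.0 CPM (-0.32 ± 0.12, adjusted p = 0.0219), Reck 16.7 ± 4.63 and 13.4 ± 3.17 CPM (-0.29 ± 0.07, adjusted p = 0.00159), and Timp2 430.5 ± 110 and 490.6 ± 127 CPM (0.21 ± 0.09, adjusted p = 0.045). Epididymis and testis markers moved with sex, with 8 of 10 tested called higher in males and sums of 0 to 17.5 CPM in females against 0.0831 to 30760 CPM in males. With the 14 libraries high in them left out, in an additive design, Mmp2 stood at -0.34 (adjusted p = 0.0559) and Mmp19 at -0.06 (adjusted p = 0.576), and the calls of Reck (-0.25, adjusted p = 0.048) and Timp2 (0.34, adjusted p = 0.0259) were kept. With the 2 Q140 libraries left out as well, Reck stood at -0.24 (adjusted p = 0.071). On FPKM with 0.1 added, where the balance over all genes went from 5898 higher and 3872 lower in males to 9051 and 2173 and their median to 0.16, Reck stood at -0.16 and was not called (adjusted p = 0.135). The Timp2 call was lost in 8 of 18 other settings, with the additive design by itself (0.20, adjusted p = 0.0678), upper-quartile scaling (adjusted p = 0.063), no low-count filter (0.0664), the replicate block (0.0533), the lane code (0.113), 3 surrogate variables (0.081), the length trend removed (0.0718) and a threshold of 0.01. It was lost in 28 of the 55 fits without 1 library, with the lowest value 0.17 without Q92 male replicate 2.

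Without the 2 Q140 libraries, 10 of 27 males lay below all 26 females in Mmp19. All 4 Q175 males (55.1 to 66.2 CPM) lay below all 4 Q175 females (73.9 to 81.5 CPM), and in the other genotypes the sexes overlapped. The lowest of all 55 were Q92 male replicate 1 at 14.3 CPM and Q140 male replicate 1 at 19.5 CPM, which had the lowest adipocyte sums (5478 and 9477 CPM) and epididymis sums of 18990 and 30760 CPM. Q80 male replicate 1 (35.8 CPM), Q92 male replicate 4 (39.2 CPM) and Q80 male replicate 2 (41.8 CPM) followed. All other libraries had at least 50.1 CPM.

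**Figure D4:**
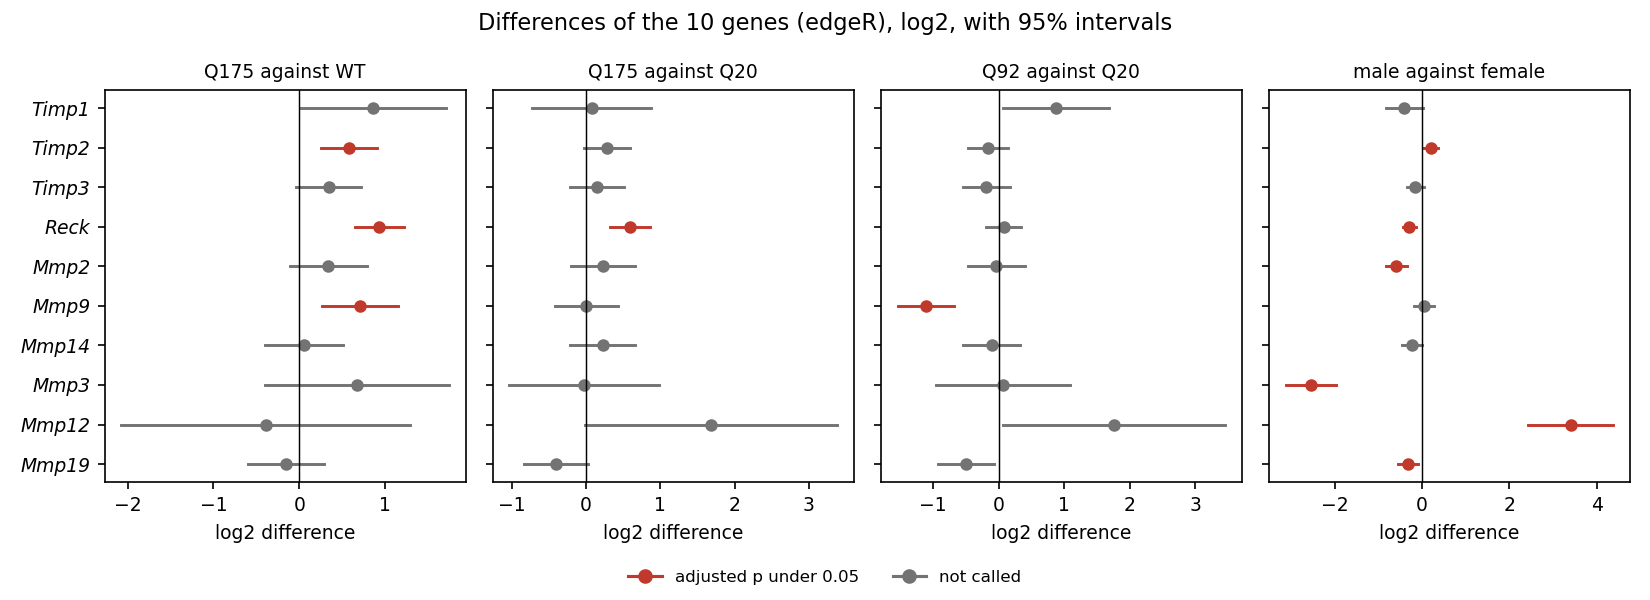
Log2 difference of each of the 10 genes with its 95% interval (horizontal axes, 1 scale per panel) in 4 comparisons by edgeR, with red for an adjusted p under 0.05. Reck, Timp2 and Mmp9 are called in Q175 against WT, Reck in Q175 against Q20, Mmp9 in Q92 against Q20, and 6 genes between the sexes, with Mmp12 at 3.41 and Mmp3 at -2.54.

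No gene of the 10 was called for a difference between the sexes in its Q175 to WT value or in its slope. In the former edgeR called 0.0284% of all genes and 0 of the 10, 0 of the 10 had an unadjusted p under 0.05, and DESeq2 and voom called 0. In the latter edgeR called 0% of all genes, DESeq2 called 0 of the 10, and voom called 1, Timp2, which was the 1 gene with an unadjusted p under 0.05 (-0.48 ± 0.19, adjusted p = 0.912 by edgeR). The sex difference of the Q175 to WT value of Reck was -0.38 ± 0.29, with a 95% interval from -0.95 to 0.18.

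Mmp12 and Mmp3 lie in a run of 10 Mmp genes on chromosome 9 in the RefSeq annotation, in the order Mmp13, Mmp12, Mmp1b, Mmp3, Mmp1a, Mmp10, Mmp8, Mmp27, Mmp20 and Mmp7. The values of these neighbours between the sexes were looked up after those of Mmp12 and Mmp3 had been seen. Mmp10, like Mmp3 a stromelysin, was lower in males (-3.36 ± 0.51, adjusted p = 2.23e-06) at very low levels, with 0.133 ± 0.103 CPM in females and 0.0195 ± 0.0448 CPM in males. Mmp27 was lower in males as well, at 0.8004 ± 0.335 against 1.18 ± 0.331 CPM (-0.57 ± 0.15, adjusted p = 0.00245). Mmp8, the neutrophil collagenase, was higher in males (2.39 ± 0.46, adjusted p = 5.69e-05) at 0.258 ± 0.334 against 0.0448 ± 0.0395 CPM. Mmp7, or matrilysin, reached 238.6 CPM in males, and in females other than Q140 female replicate 1, which had 222 CPM, it was at most 0.224 CPM. Mmp13, at the end of the run beside Mmp12, stood at 0.06 ± 0.35 (adjusted p = 0.948), with 0.194 ± 0.139 CPM in females and 0.213 ± 0.1801 CPM in males. Mmp1b and Mmp1a gave no usable value (SE 17450.5 and 24733.9), and Mmp20 did not pass the low-count filter. So genes of this run were called in opposite directions between the sexes, in part at very low levels. Over all genes tested edgeR called 27.9% higher and 18.3% lower in males, so calls in both directions were common outside this run too.

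Of the 16 tested genes among the further Mmp genes and Timp4, which include those neighbours, 5 were called higher in males and 7 lower. Over all genes tested edgeR called 46.3% between the sexes, 27.9% as higher and 18.3% as lower. A call between the sexes was thus common, and the counts of the lists here are given as a description. Timp4, an inhibitor abundant in fat, stood at 94.9 ± 52.0 CPM in females against 233 ± 116 CPM in males (1.31 ± 0.19, adjusted p = 4.34e-07), and the membrane-type Mmp17 9.18 ± 12.8 and 3.17 ± 1.98 CPM (-1.35 ± 0.24, adjusted p = 2.1e-05). Of 20 matrix substrates 1 was called higher in males (Spp1) and 5 lower, led by Col6a3 and Col6a1, chains of collagen VI (-1.12 ± 0.15 and -0.70 ± 0.10). Mrc2, the collagen uptake receptor, was lower in males by -1.10 ± 0.10 (adjusted p = 1.91e-11). Of 13 activators 5 were called higher and 2 lower, with Serpine2, an inhibitor of thrombin and plasminogen activators, at 1.12 ± 0.14 and Pcsk5, a proprotein convertase, at -0.63 ± 0.12.

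Within groups, the 10 genes varied in different company. Likeness was the Pearson correlation of log2 CPM after subtracting the mean of each of the 14 groups, over 55 libraries that share batches, depth and neighbouring tissue, and it is given as a description. Among the pairs of the set, Timp2 and Reck were the most alike (r = 0.80, Spearman rho = 0.69, and r = 0.74 without the 2 libraries farthest from the median). Mmp19 and Timp3 (r = 0.72, rho = 0.56, and 0.58 without 2 libraries) and Mmp2 and Mmp14 (r = 0.71, rho = 0.66, and 0.73) followed.

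Among all tested genes, Reck was most like Nynrin (r = 0.87, rho = 0.75), Fn1 (0.86, 0.80) and Antxr1, a collagen-binding receptor (0.83, 0.72). Timp2 was most like Ecm1, a secreted matrix glycoprotein (0.95, 0.92), Serping1, the complement C1 inhibitor (0.92, 0.87), and Tgfbi, a matrix adhesion protein (0.89, 0.85). Timp1 was most like Trem2, a lipid receptor of macrophages (0.79, 0.75), Lgmn, a lysosomal proteinase (0.76, 0.78), and Cxcl16 (0.73, 0.75). Mmp12 was most like Itgax (0.85, 0.77), with ENSMUSG00000089672 (0.81, 0.80) and the myeloid kinase gene Fgr (0.80, 0.65) after it. Trem2 and Itgax belong to the macrophage marker list.

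Mmp19 was most like Parp3 (0.94, 0.81), Fah, the last enzyme of tyrosine breakdown (0.94, 0.76), and Sardh (0.93, 0.79), and Timp3 like Mcf2l (0.91, 0.84), Slc43a3 (0.90, 0.82) and Slc9a3r2 (0.90, 0.80). Mmp3 was most like Epdr1 (0.91, 0.84), Colec12, a scavenger receptor (0.84, 0.70), and Lsp1 (0.83, 0.80). Mmp2 was most like Lrrc17 (0.80, 0.75), Steap3 (0.78, 0.73) and Bmp1, the procollagen C-proteinase (0.78, 0.68). Mmp14 was most like Mamdc2 (0.88, 0.75), Gem (0.86, 0.64) and Clip3 (0.85, 0.66). Mmp9 had the least close neighbours, Arhgef3 (0.74, 0.69), Arhgap45 (0.71, 0.74) and Islr, a gene of fibroblasts (0.69, 0.64).

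Against the summed marker lists, the same measure was highest with macrophages for Timp2 (r = 0.81, rho = 0.72, and 0.78 without the 2 farthest libraries), Mmp12 (0.61, 0.47 and 0.47) and Timp1 (0.595, 0.64 and 0.58). For Mmp19 and Timp3 it was highest with adipocytes (0.89, 0.63 and 0.79, and 0.73, 0.58 and 0.60) and opposite in sign with epididymis and testis (-0.74 for Mmp19 and -0.65 for Timp3). This was not particular to adipocytes. With endothelial markers r was 0.75 for Mmp19 and 0.69 for Timp3, and with progenitor markers 0.72 and 0.585. The rho of Mmp19 with progenitor markers was 0.64. For Reck it was 0.64 with mesothelial markers, 0.60 with macrophage markers and 0.43 with progenitor markers. For Mmp3 the value with progenitor markers was 0.605, and 0.48 without the 2 farthest libraries.

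**Figure D5:**
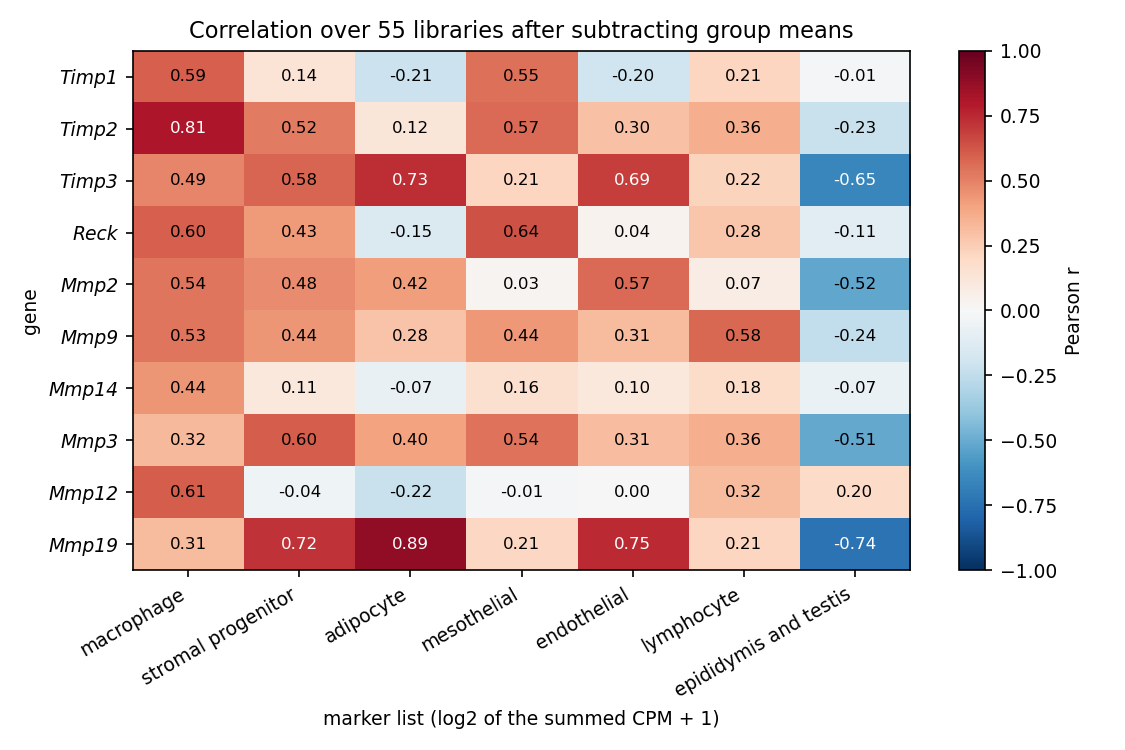
Pearson correlation (colour and number) over 55 libraries between each of the 10 genes (rows) and the log2 summed CPM of 7 marker lists (columns), after subtracting group means. Timp2 with macrophages (0.81) and Mmp19 with adipocytes (0.89) are the highest, and Mmp19 with epididymis and testis (-0.74) is the lowest.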

How the data were processed

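Per the labels, RNA was sequenced from gonadal white fat of mice of 7 genotypes and both sexes. The expected counts per gene and the FPKM used here were deposited by the authors. Per the submitters' processing notes CASAVA 1.8.2 was used, while aligner, counter and build are not given in the sources read. From 43432 genes, 42462 identifiers were matched to symbols in GENCODE M21. The deposited expected counts, of which 33.7% of those above 0 were not whole, were rounded. edgeR 4.0.16 (R 4.3.3) was run with TMM scaling, the filterByExpr filter over 14 groups, and a robust quasi-likelihood test with 1 mean per group over all 55 libraries. Adjusted p-values are Benjamini-Hochberg over 21113 genes, with a threshold of 0.05, and the steps were tested on simulated data. The alternatives used DESeq2 1.42.0, limma 3.58.1 (voom, and log2 of FPKM plus 0.1 or 1) and sva 3.50.0, and their effects are given in the closing section. The reads carry no molecular identifiers, so depth bounds counting error only. The 10 genes are all named. Of each other list, up to 4 called genes with the smallest p were named per main comparison, and up to 2 of each marker list. The members and lists were chosen with earlier results of these data known. Same-numbered libraries of different groups had a median r of 0.011 over 351 pairs (from -0.759 to 0.761), beside -0.006 for other numbers. No libraries held identical values.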

Additional observations from a re-analysis of the deposited data

Results flagged for a closer look

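In groups of 4 libraries, 13 of 130 combinations of gene and group held 1 library far from the other 3, each time the highest. The cutoff, a gap over 0.829 of the range, assumes normal values, and the combinations share libraries, so no chance rate is given. For Mmp12 these were Q80 male replicate 2 at 129.79 CPM, Q111 male replicate 1 at 75.221 CPM, Q140 male replicate 1 at 39.031 CPM, Q140 female replicate 1 at 22.117 CPM and Q92 female replicate 2 at 5.202 CPM. The sex genes of Q140 female replicate 1 went against its label. For Reck they were Q111 female replicate 4 at 23.845 CPM, Q92 male replicate 2 at 18.082 CPM and WT male replicate 1 at 15.839 CPM. Mmp3 stood apart in Q92 male replicate 2 at 5.701 CPM and in WT male replicate 1 at 3.2113 CPM. Mmp14 stood apart in Q111 female replicate 4 at 260.35 CPM, Mmp2 in Q20 female replicate 3 at 111.11 CPM and Timp1 in Q92 female replicate 2 at 13.065 CPM. Causes were not tested.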

How the results depend on the processing

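No direction of a called gene was reversed in 237 alternative values, of which 197 kept the call and 40 lost it. The cause was not tested. Of the 10 genes, the 3 called in Q175 against WT became 6 with voom, 6 with the 2 genotypes fitted alone, 1 with the lane code as a factor, 1 with the length trend removed, 1 at a threshold of 0.01 and 0 in males alone, and also 2 with no low-count filter and 4 on FPKM plus 0.1, with 3 surrogate variables, without the libraries high in epididymis markers, and without those and the 2 Q140 libraries. In Q175 against Q20 the 1 call became 3 with voom, 2 on either FPKM scale, 5 with the genotypes alone, 3 in females alone and 0 in males alone. In Q20 against WT the 0 became 3 with voom. In Q92 against Q20 the 1 became 3 with voom and 0 with the lane code, with the genotypes alone, without the libraries high in epididymis markers, in females alone, in males alone, and without those libraries and the 2 Q140 libraries, a setting chosen after seeing the data. For the slope the 1 became 2 with voom, 3 in females alone, 2 in the added setting, and 0 with the lane code, in males alone, with the length trend removed, over Q20 to Q140 and at the threshold of 0.01. Between the sexes the 6 became 3 in the added setting, 4 with the lane code, with 3 surrogate variables, without the libraries high in epididymis markers and at the threshold of 0.01, and 5 with upper-quartile scaling, either FPKM scale, no low-count filter, the additive design, the replicate block and the length trend removed, and for the sex difference of the slope the 0 became 1 with voom. Leaving out 1 library gave 1 to 3 calls in Q175 against WT (1 without WT female replicate 3 or WT male replicate 2), 0 to 1 in Q20 against WT (1 without WT male replicate 1), 1 to 2 in Q92 against Q20 (2 without Q92 male replicate 3) and 1 to 2 for the slope (2 without Q80 male replicate 2). With the replicate block Timp2 between the sexes stood at 0.21 (adjusted p = 0.0533) and was the call it ended. The labels do not say whether the replicate numbers pair any samples, and a median correlation over all groups cannot decide it.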
